A study of Mus musculus with 6 samples.

Results

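The fragments described here come from 3 mitochondrial tRNA genes that lie side by side in the mouse mitochondrial genome: mt-Ti, mt-Tq and mt-Tm, which encode the tRNAs for isoleucine (anticodon GAT), glutamine (TTG) and methionine (CAT). They are all the tRNA-derived fragments (tRFs) of these genes in the deposited table, found by the name of the host tRNA: 18 of the 170 listed tRFs, of which 8 came from mt-Ti, 3 from mt-Tq and 7 from mt-Tm. A further 129 listed tRFs came from other mitochondrial tRNAs (mt-tRFs) and 23 from nuclear tRNAs. The small RNA of pancreatic islets was sequenced from 3 *db/db* mice and 3 *db/+* mice, 1 library per mouse. All were 16 weeks old and on chow diet, and the study's methods give the sex of the *db/db* mice as male. *db/db* mice (labelled BKS(D)-Leprdb/JOrlRj) carry the leptin receptor mutation on both copies of the gene in all tissues and are obese. Their sample titles call them pre-diabetic, while the paper's text calls them diabetic and gives fasting hyperglycaemia at this age. The heterozygous *db/+* controls (labelled BKS(D)-Leprdb/+/JorlRj) carry 1 functional copy and are not wild type. Whole islets hold several endocrine cell types, and fewer cells of a type and less RNA per cell cannot be told apart in them. The table lists only tRFs that the authors had called decreased in *db/db* islets on these same libraries, so a decrease is what the list was made of and is not independent evidence.

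Mitochondrial DNA is transcribed from both strands into long precursors in which tRNAs stand between the coding sequences. The tRNAs are cut out at their 5′ and 3′ ends, a CCA tail is added at the 3′ end, and the cuts release the neighbouring mRNAs at the same time. Mature tRNAs can themselves be cut, most often in or near the anticodon loop, into 5′ and 3′ fragments. Mitochondrial tRNA-Met is the tRNA that starts translation of every mitochondrially encoded protein and also reads internal methionine codons.

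On the GRCm38 build (GENCODE M21 annotation, chromosome M), the cluster lies between the genes of 2 subunits of respiratory complex I. mt-Nd1 spans 2751 to 3707 on the plus strand, mt-Ti 3706 to 3774 on the plus strand, mt-Tq 3772 to 3842 on the minus strand, mt-Tm 3845 to 3913 on the plus strand, and mt-Nd2 3914 to 4951 on the plus strand. The first 2 bases of mt-Ti are also the last 2 of mt-Nd1, mt-Ti and mt-Tq share their last 3 bases on opposite strands, 2 bases separate mt-Tq from mt-Tm, and none separates mt-Tm from mt-Nd2. The tRNAs are shown first because every fragment is a piece of one of them. Each is written 5′ to 3′ from the annotated gene with CCA added, as DNA letters, with the anticodon in capitals.

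mt-Ti: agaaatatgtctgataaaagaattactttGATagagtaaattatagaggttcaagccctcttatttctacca
mt-Tq: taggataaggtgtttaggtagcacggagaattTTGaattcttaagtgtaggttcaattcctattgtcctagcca
mt-Tm: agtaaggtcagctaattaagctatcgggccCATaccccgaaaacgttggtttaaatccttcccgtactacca

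mt-Ti and mt-Tm are 69 nt long and mt-Tq 71 nt before the CCA. mt-Ti is the richest of the 3 in A and T (72.46% of its bases), followed by mt-Tq (63.38%) and mt-Tm (55.07%). The anticodon lies at bases 30 to 32 of mt-Ti, 33 to 35 of mt-Tq and 31 to 33 of mt-Tm, within a loop of 7 bases closed by a stem of 5 base pairs. All 5 pairs of this stem are Watson-Crick pairs in mt-Ti and mt-Tm, while in mt-Tq 4 are Watson-Crick pairs and 1 is a wobble pair.

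Of the 18 fragments, 16 started at the first base of the mature tRNA and are called 5′ fragments here. The other 2, both of mt-Tm, ended in the CCA and are called 3′ fragments, although the table names them internal fragments. Over all mt-tRFs that matched a tRNA exactly (133 of 147), 67 were 5′, 52 were 3′ and 14 internal. No fragment included bases of a neighbouring gene beyond those shared with mt-Nd1. The most abundant fragment of each gene, fragments that are compared with it below and both 3′ fragments are printed, because the values turn on where they end. The anticodon, or the part of it that the fragment holds, is in capitals.

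mt-Ti, 29 nt 5′: agaaatatgtctgataaaagaattacttt
mt-Ti, 37 nt 5′: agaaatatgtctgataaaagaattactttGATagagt
mt-Ti, 41 nt 5′: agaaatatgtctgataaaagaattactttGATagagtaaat
mt-Ti, 42 nt 5′: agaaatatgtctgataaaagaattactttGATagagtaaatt
mt-Tq, 33 nt 5′: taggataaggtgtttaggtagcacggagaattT
mt-Tq, 42 nt 5′: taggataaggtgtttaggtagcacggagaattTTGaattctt
mt-Tm, 52 nt 5′: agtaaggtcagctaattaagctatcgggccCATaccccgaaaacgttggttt
mt-Tm, 40 nt 3′: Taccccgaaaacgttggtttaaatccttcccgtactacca
mt-Tm, 39 nt 3′: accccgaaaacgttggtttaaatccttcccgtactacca

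The ends fell in different places in the 3 tRNAs. In mt-Ti they ran from the last base of the 5′ anticodon stem to just past the 3′ stem: 1 fragment ended at the end of the 5′ stem (27 nt), 2 in the loop (29 and 32 nt), 2 in the 3′ stem (37 and 38 nt) and 3 after it (41, 42 and 44 nt). In mt-Tq, 2 fragments ended in the loop, just before the anticodon (32 nt) and after its first base (33 nt), and 1 at the last base of the 3′ stem (42 nt). No 5′ fragment of mt-Tm ended in its anticodon loop: 1 ended at the last base of the 3′ stem (40 nt) and 4 after it (44, 47, 48 and 52 nt). The 3′ fragments of mt-Tm started at base 33, the last base of the anticodon (40 nt), and at base 34, the base after it (39 nt). No listed 5′ fragment of mt-Tm ended at base 32 or 33, so each 3′ fragment overlapped every 5′ fragment and none of them met end to end.

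**Figure D1:**
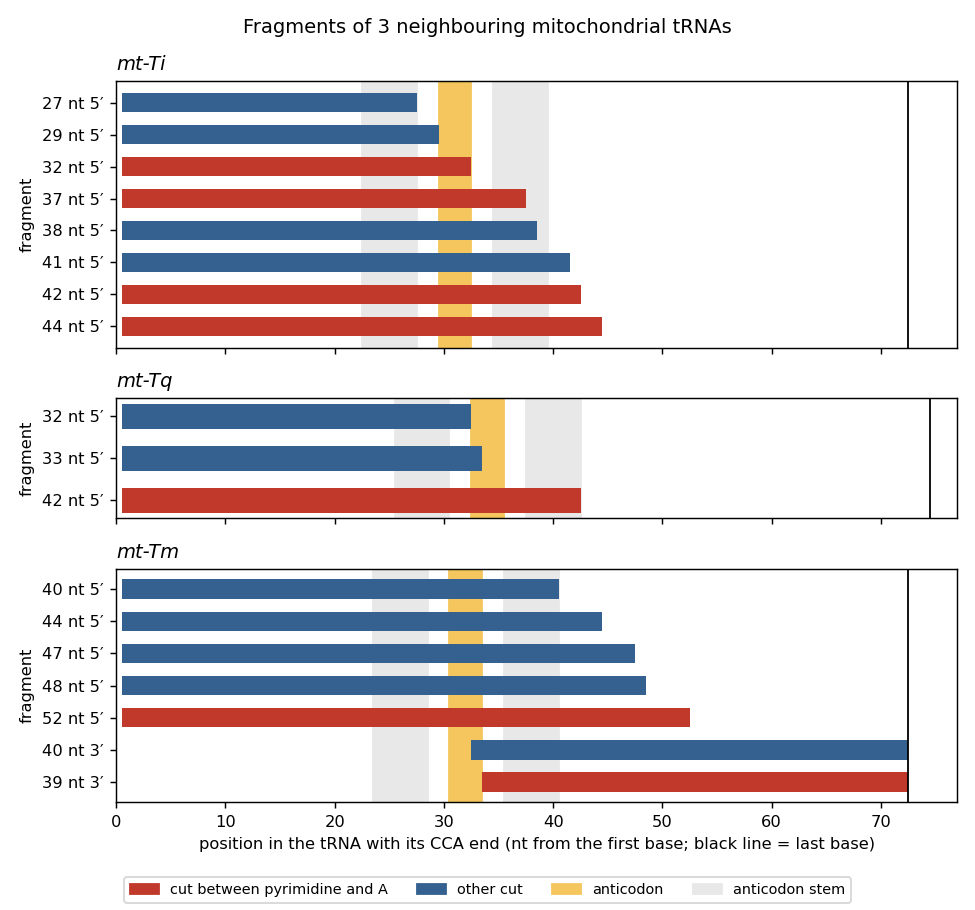
Position of each of the 18 fragments (bars) in its tRNA, in nt from the first base, with the anticodon (yellow), the strands of the anticodon stem (grey) and the last base with the CCA (black line). Bars that end (5′ fragments) or start (3′ fragments) between a pyrimidine and an A are red, 7 of the 18, and only mt-Tm has 3′ fragments.

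The reads show only where a fragment ends, and its cut is placed at that end here. For a 5′ fragment this is between its last base and the next base of the tRNA. For a 3′ fragment it is between the base before it and its first base. The bond between a pyrimidine (C or T) and a following A is the one that ribonucleases of the RNase A family, which includes angiogenin, and spontaneous hydrolysis break most readily in single-stranded RNA. Of the 18 cuts, 7 lay at such a pyrimidine-A step, each of them a T followed by an A. They were those of the mt-Ti fragments of 32, 37, 42 and 44 nt, the mt-Tq fragment of 42 nt, the mt-Tm 5′ fragment of 52 nt and the mt-Tm 3′ fragment of 39 nt. Such cuts are not particular to the cluster: among the other matched mt-tRFs, 40 had one and 75 had another cut. What cut these RNAs was not tested, and this split of the members was made after their values had been seen, so it is given without a test.

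Levels are the reads of a fragment divided by the authors' size factor of the library, called normalized reads below. Each read is 1 whole fragment, so a level does not scale with the length of the fragment. The size factors were 1.68, 1.59 and 0.668 in *db/+* replicates 1 to 3 and 0.509, 1.01 and 1.20 in *db/db* replicates 1 to 3. The reads of the listed tRFs, which are not a depth, summed to 25301 to 31989 in *db/+* and 1730 to 7639 in *db/db* libraries. *db/db* replicate 1 held the fewest reads of the cluster, 47 of mt-Ti, 2 of mt-Tq and 102 of mt-Tm. *db/+* replicate 3 stood apart from the other controls: it alone carried 64.0% of the *db/+* level of mt-Ti, 54.1% of that of mt-Tq and 59.96% of that of mt-Tm. Where leaving out 1 library ended a call or moved a fold change by over 1.5 times, the value without it is given with the result.

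The leading mt-Ti fragment was the one of 42 nt (3706 to 3747), which ends 10 bases past the anticodon. It had 171, 500.2 and 1527 normalized reads in *db/+* replicates 1 to 3, and 23.6, 214 and 63.2 in *db/db* replicates 1 to 3. *db/+* replicate 3 was far above the rest, and the groups overlapped, since *db/db* replicate 2 lay above *db/+* replicate 1. The group means were 733 ± 707 and 100.2 ± 100.4 (SD, n = 3 each). The log2 fold change was -2.86 (standard error, SE, 1.01, edgeR adjusted p = 0.0177). It did not pass without *db/db* replicate 1 (-2.40, adjusted p = 0.0685) or without *db/db* replicate 3 (-2.61, adjusted p = 0.0637, both from edgeR). The fold change was -1.73 without *db/+* replicate 3 and -4.06 without *db/db* replicate 2, and it passed in both cases.

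The mt-Ti fragment of 37 nt (3706 to 3742), cut within the 3′ strand of the anticodon stem, was the next by mean over the 6 libraries, below the 42-nt fragment in *db/+* and above it on average in *db/db* mice. It had 158, 476 and 1374 normalized reads in the *db/+* and 39.3, 256 and 52.4 in the *db/db* libraries, in the order of their replicate numbers. The libraries stood in the same order as for the 42-nt fragment within each group, and the groups again overlapped. Its log2 fold change was -2.52 (SE 0.99, edgeR adjusted p = 0.0264), with adjusted p of 0.1005 and 0.0960 without *db/db* replicates 1 and 3. It was -1.44 without *db/+* replicate 3 and -3.86 without *db/db* replicate 2. The fragment of 32 nt, which ends with the last base of the anticodon, had 47.1, 79.7 and 208 against 15.7, 51.7 and 19.1 normalized reads. Its groups overlapped as well, by *db/db* replicate 2 and *db/+* replicate 1, and its log2 fold change was -1.92 (SE 0.75, edgeR adjusted p = 0.0255). It did not pass without *db/+* replicate 3 (-1.10, adjusted p = 0.0782), *db/db* replicate 1 (-1.65, adjusted p = 0.0818) or *db/db* replicate 3 (-1.69, adjusted p = 0.0886, all from edgeR). Without *db/db* replicate 2 it was -2.65 and passed.

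The mt-Ti fragment of 29 nt (3706 to 3734), which stops just before the anticodon, had the smallest p of the 18. It had 50.0, 57.1 and 22.5 normalized reads in *db/+* and 1.96, 5.97 and 3.33 in *db/db* replicates 1 to 3. Here *db/+* replicate 3 was the lowest control, and the groups did not overlap. Its log2 fold change was -3.43 (SE 0.61, edgeR adjusted p = 0.00257), with -3.90 to -3.18 when 1 library at a time was left out, and it passed each time. The *db/db* values rest on 1, 6 and 4 reads.

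Fragments whose ends lay 1 base apart differed widely in level in some pairs and little in others. The 41-nt fragment of mt-Ti had 32.8, 32.6 and 29.9 normalized reads in *db/+* and 5.89, 8.96 and 8.31 in *db/db* replicates 1 to 3. It had the lowest SD of the mt-Ti fragments in each group, and the groups did not overlap (31.8 ± 1.59 against 7.72 ± 1.61, SD, n = 3 each). The 42-nt fragment, longer by a single T that precedes an A, had 5.22, 15.3 and 51.0 times as many reads as it in *db/+* and 4, 23.9 and 7.60 times as many in *db/db* replicates 1 to 3. These ratios overlapped between the genotypes, and *db/+* replicate 3 had the highest one. The 37-nt fragment had likewise 2.48, 5.16 and 35.3 times the reads of the 38-nt fragment in *db/+* and 10.0, 17.1 and 2.74 times in *db/db* libraries. The 38-nt fragment itself had 38.9 to 92.3 normalized reads in *db/+* and 3.93 to 19.1 in *db/db* libraries, without overlap. In mt-Tm, the 47-nt fragment had 0.743 to 4.68 times the reads of the 48-nt fragment over the 6 libraries, and the 39-nt 3′ fragment 0.733 to 1.67 times those of the 40-nt 3′ fragment. The 32-nt fragment of mt-Tq had 3 to 3.95 times the reads of the 33-nt fragment in *db/+* libraries.

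The remaining mt-Ti fragments were scarcer. The 27-nt fragment, which holds the tRNA up to the end of the 5′ strand of the anticodon stem, had 14.97 to 32.01 normalized reads in *db/+* and 1.00 to 4.99 in *db/db* libraries, a log2 fold change of -3.09 (-4.10 without *db/db* replicate 3). The 44-nt fragment had 16.1, 33.9 and 111 in *db/+* and 0, 7.96 and 12.5 in *db/db* replicates 1 to 3, a log2 fold change of -2.77 (-1.63 without *db/+* replicate 3 and -3.45 without *db/db* replicate 3). The 0 of *db/db* replicate 1 allows up to 5.89 normalized reads (3 reads), a limit for counting error only. Neither fragment overlapped between the groups.

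mt-Tq gave the fewest fragments and the lowest levels. Its leading fragment, of 42 nt (3842 to 3801, minus strand), had 38.7, 66.5 and 222 normalized reads in *db/+* and 0, 20.9 and 17.5 in *db/db* replicates 1 to 3. The groups did not overlap, *db/+* replicate 3 was the highest, and *db/db* replicate 1 had no read of it, which allows up to 5.89 normalized reads. The means were 109 ± 98.5 and 12.8 ± 11.2 (SD, n = 3 each). The log2 fold change was -2.98 (SE 0.94, edgeR adjusted p = 0.0103), which ranged from -3.45 to -1.89 without 1 library, the latter without *db/+* replicate 3, and passed each time.

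The 33-nt fragment of mt-Tq had the largest decrease of the 18 in the edgeR fit, -4.26 (SE 1.14, edgeR adjusted p = 0.00550), and the fewest reads. It was not the largest with limma on single fragments (-2.77, against -3.51 for the 42-nt fragment of mt-Tq), nor without *db/db* replicate 2 (-3.70) or 3 (-3.56), and without *db/db* replicate 1 it was -6.55. It had 8.93, 12.6 and 5.99 normalized reads in *db/+* replicates 1 to 3, and 1.96, 0 and 0 in *db/db* replicates 1 to 3. The groups did not overlap, but the *db/db* values rest on 1 read in all, against 39 in *db/+*. The reads of each group were also pooled and divided by its summed size factors. This pooled level was 26.9-fold higher in *db/+* (95% counting interval 4.55 to 1089, counting error only). The ratio of the mean levels was 14.0, so the size of the decrease is loosely known. The 32-nt fragment, shorter by 1 base, had 31.6, 49.6 and 17.96 against 1.96, 4.98 and 8.31 normalized reads, without overlap, and a log2 fold change of -2.58. In contrast with the 42-nt fragment, *db/+* replicate 3 was the lowest control for both.

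The most abundant fragment of mt-Tm, and of the whole cluster, was the 5′ fragment of 52 nt (3845 to 3896), which ends 19 bases past the anticodon. It had 352, 798 and 2299 normalized reads in *db/+* and 141, 473 and 234 in *db/db* replicates 1 to 3. *db/db* replicate 2 lay above *db/+* replicate 1, so the groups overlapped, and *db/+* replicate 3 was again far above the rest. The means were 1150 ± 1020 and 283 ± 171 (SD, n = 3 each). The log2 fold change was -2.02 (SE 0.85, edgeR adjusted p = 0.0346). This was the highest adjusted p of the 18, and the fragment did not pass without *db/+* replicate 3 (-1.02, adjusted p = 0.0885) or without *db/db* replicate 1 or 3 (adjusted p = 0.119 and 0.117 from edgeR). Without *db/db* replicate 2 it was -2.61.

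The other 5′ fragments of mt-Tm ranged over 16.5 to 217 normalized reads in *db/+* and 5.89 to 45.8 in *db/db* libraries. The 47-nt fragment had the highest mean of them (48.2, 117 and 217 against 19.6, 45.8 and 19.1), with a log2 fold change of -2.15 that did not pass without *db/db* replicate 3 (edgeR adjusted p = 0.0607) and was -1.53 without *db/+* replicate 3. The 40-nt fragment, which ends with the anticodon stem, had 81.6, 67.2 and 16.5 in *db/+* and 9.82, 19.9 and 11.6 in *db/db* replicates 1 to 3. Its groups overlapped because of *db/+* replicate 3, here the lowest control, and its log2 fold change was -1.99 (edgeR adjusted p = 0.0116), or -2.39 without that library. The fragments of 44 and 48 nt did not overlap between groups and had log2 fold changes of -2.20 and -2.09.

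Both 3′ fragments of mt-Tm were more even among the controls than its leading 5′ fragment. The 40-nt 3′ fragment (bases 33 to 72, of which the gene part lies at 3877 to 3913) had 33.9, 32.6 and 41.9 normalized reads in *db/+* and 9.82, 8.96 and 12.5 in *db/db* replicates 1 to 3. The groups did not overlap, and its decrease was the smallest of the 18 in the edgeR fit: -1.77 on the log2 scale (SE 0.47, edgeR adjusted p = 0.00550), between -1.93 and -1.65 without 1 library. With 1 library left out, its decrease stayed the smallest only without *db/db* replicate 2 (-1.66). Without *db/+* replicate 1 (-1.60) or 2 (-1.83) the mt-Tm 40-nt 5′ fragment had the smallest. Without *db/+* replicate 3 it was the mt-Tm 52-nt fragment (-1.02), and without *db/db* replicate 1 (-1.65) or 3 (-1.69) the mt-Ti 32-nt fragment. With limma on single fragments the 40-nt 3′ and 5′ fragments were level (-1.71 and -1.70). With the replicate number as a block the 5′ fragment changed less (-1.75 against -1.79). The 39-nt 3′ fragment, shorter by the last base of the anticodon, had 39.9, 53.3 and 68.9 against 7.86, 14.9 and 9.15 normalized reads. It did not overlap either, and its log2 fold change was -2.30 (SE 0.53, edgeR adjusted p = 0.00445).

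**Figure D2:**
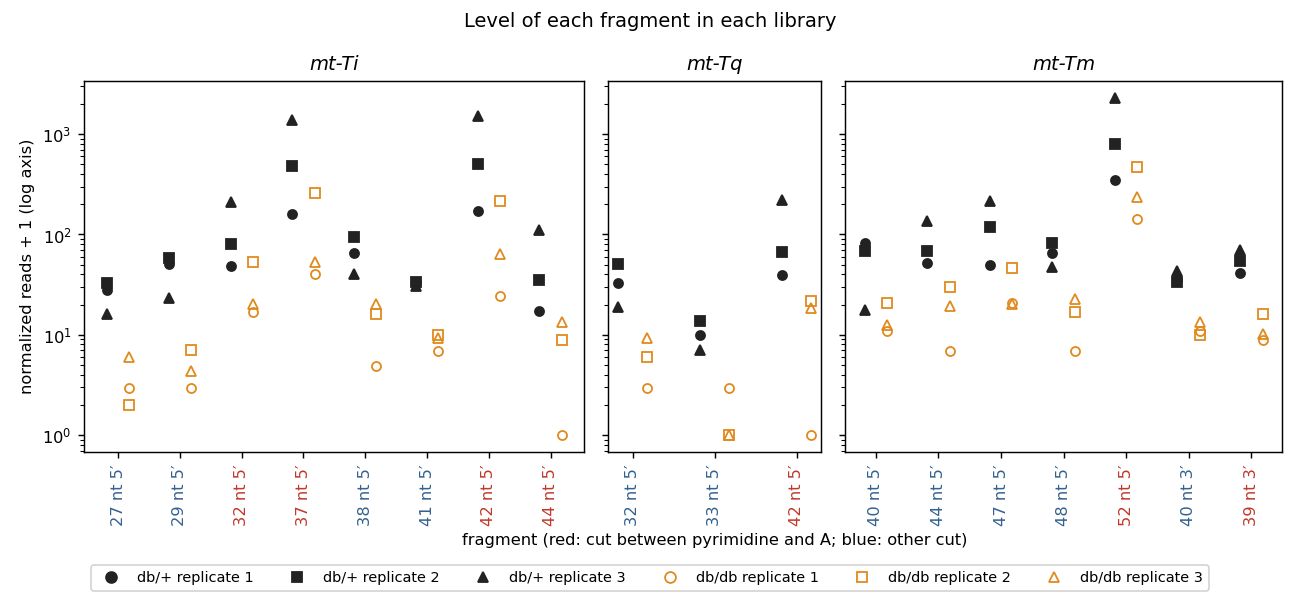
Normalized reads plus 1 (log axis) of each fragment in the 3 *db/+* (black) and 3 *db/db* (open, orange) libraries, with the fragment's length and end below (red, cut at a pyrimidine-A step; blue, other cut). The triangle of *db/+* replicate 3 stands above the other controls for all 7 red fragments and below them for most of the blue ones.

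Across the members, all 18 fragments passed edgeR's quasi-likelihood test (at least 2-fold lower, at an adjusted p no higher than 0.05), in a list of which 97.6% passed. With levels rescaled so that the nuclear tRFs of the list had equal sums, none did (0 by edgeR, 4 at an unadjusted p of at most 0.05), and their median log2 fold change went from -2.29 to -1.07. Their groups did not overlap for 13 of the 18, while 94.7% of the whole list did not overlap. The 5 that overlapped were the mt-Ti fragments of 32, 37 and 42 nt and the mt-Tm 5′ fragments of 40 and 52 nt, and 4 of these 5 were cut at a pyrimidine-A step. Among the other matched mt-tRFs, only 3 of the 40 with a pyrimidine-A cut overlapped, and 0 of the 75 with another cut. The median log2 fold change was -2.65 over the mt-Ti, -2.98 over the mt-Tq and -2.09 over the mt-Tm fragments, and -2.29 over the 18, beside -2.42 over all 170 listed tRFs, -2.51 over the other mt-tRFs and -1.96 over the nuclear tRFs. Fragments of 1 tRNA overlap in sequence and share their source, so these counts do not stand for independent observations.

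Leaving out 1 library at a time ended calls mainly among the pyrimidine-A fragments. All 18 passed without *db/+* replicate 1, *db/+* replicate 2 or *db/db* replicate 2. Without *db/+* replicate 3, 16 passed, and the mt-Ti 32-nt and mt-Tm 52-nt fragments did not. Without *db/db* replicate 1, 14 passed, and the mt-Ti fragments of 32, 37 and 42 nt and the mt-Tm fragment of 52 nt did not. Without *db/db* replicate 3, 13 passed, the same 4 being lost together with the mt-Tm fragment of 47 nt, the only loss among the 11 fragments with other cuts.

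**Figure D3:**
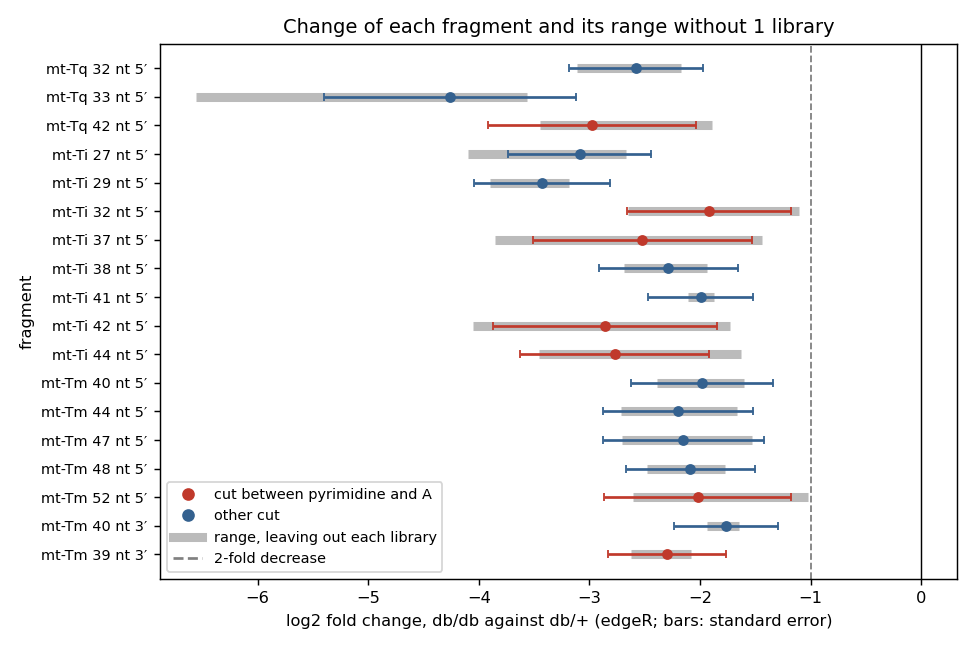
log2 fold change of each fragment, *db/db* against *db/+*, from edgeR with its standard error (points and bars) and the range of the values when 1 library is left out (grey). Every point lies beyond the 2-fold line, from -1.77 for the mt-Tm 40-nt 3′ fragment to -4.26 for the mt-Tq 33-nt fragment, and the mt-Tm 52-nt fragment comes nearest to the line without 1 library (-1.02).

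The rank of the control libraries differed with the bases at the cut. The reason was not tested. All 7 pyrimidine-A fragments were highest in *db/+* replicate 3, at 1.48 to 4.55 times the mean of *db/+* replicates 1 and 2 (3.28 to 4.55 times for the 6 that are 5′ fragments). Of the 11 fragments with another cut, 3 were highest in that library (mt-Tm 44 and 47 nt, and the 40-nt 3′ fragment), and the ratio ran from 0.221 to 2.63. The lowest ratio belonged to the mt-Tm 40-nt 5′ fragment and the highest to the mt-Ti 42-nt fragment. The other matched mt-tRFs split in the same direction: 36 of 40 with a pyrimidine-A cut were highest in *db/+* replicate 3 (median ratio 3.43), against 5 of 75 with another cut (median ratio 0.595).

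Summed over the 7 pyrimidine-A fragments, the level was 822, 2007 and 5809 normalized reads in *db/+* and 228, 1038 and 408 in *db/db* replicates 1 to 3. The groups overlapped in this sum. Summed over the 11 others it was 493, 641 and 588 in *db/+* and 68.8, 155 and 127 in *db/db* libraries, with no overlap and a narrow range among the controls. The pyrimidine-A fragments made up 62.5%, 75.8% and 90.8% of the cluster's level in *db/+* and 76.8%, 87.0% and 76.2% in *db/db* replicates 1 to 3. The share thus differed more within each genotype than between the group means, 76.4% and 80.0%. The median log2 fold change was -2.52 for the pyrimidine-A fragments and -2.20 for the others.

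**Figure D4:**
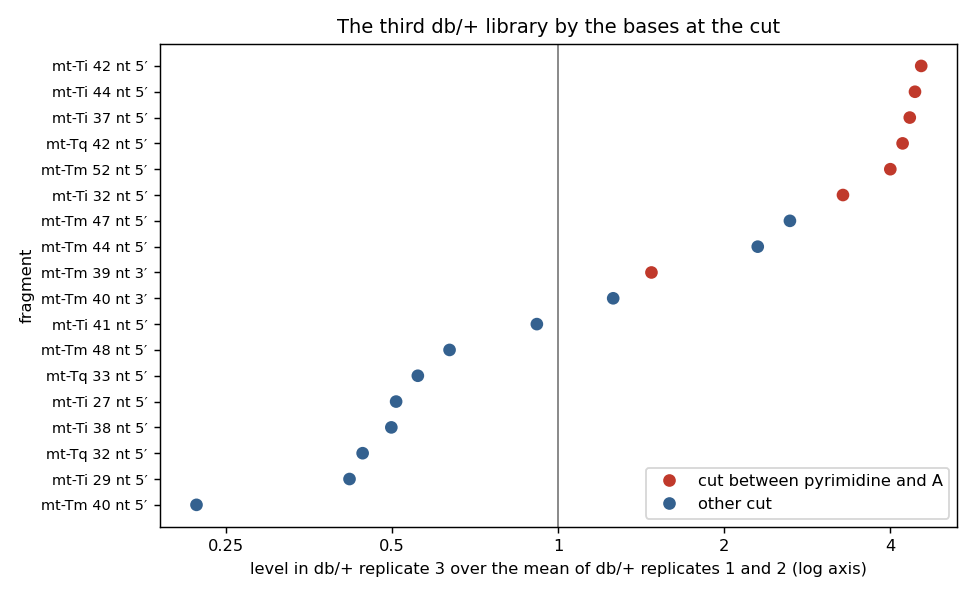
Level of each fragment in *db/+* replicate 3 divided by the mean of *db/+* replicates 1 and 2 (log axis), ordered by this ratio and coloured by the bases at the cut. The 6 pyrimidine-A 5′ fragments lie at 3.28 or above, and no fragment with another cut exceeds 2.63.

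When all listed fragments of a gene were summed, mt-Ti and mt-Tm stood at similar levels and mt-Tq well below both. mt-Ti had 565, 1304 and 3326 normalized reads in *db/+* and 92.3, 560.2 and 183 in *db/db* replicates 1 to 3. The groups came close, by *db/db* replicate 2 and *db/+* replicate 1, but did not overlap (1732 ± 1429 against 278 ± 248, SD, n = 3 each). The log2 fold change of the sum plus 1 was -2.66 (SE 0.87, limma adjusted p = 0.0200 over 30 parent tRNAs), and it did not pass without *db/+* replicate 3 (-2.01, adjusted p = 0.0605) or *db/db* replicate 1 (-2.07, adjusted p = 0.0712). It was -3.29 without *db/+* replicate 1 and -3.36 without *db/db* replicate 2.

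mt-Tq summed to 79.2, 129 and 245 normalized reads in *db/+* and 3.93, 25.9 and 25.8 in *db/db* replicates 1 to 3. The lowest control lay well above every *db/db* library (151 ± 85.4 against 18.5 ± 12.6, SD, n = 3 each). The log2 fold change was -3.17 (SE 0.74, limma adjusted p = 0.00811) and passed without any 1 library, at -2.35 without *db/db* replicate 1. mt-Tm summed to 671, 1216 and 2826 against 200.4, 607 and 327 normalized reads. *db/db* replicate 2 was just below *db/+* replicate 1, so the groups did not overlap (1571 ± 1120 against 378 ± 208, SD, n = 3 each). Its log2 fold change was -1.95 (SE 0.68, limma adjusted p = 0.0233), and it did not pass when *db/+* replicate 2 or 3 or *db/db* replicate 1 or 3 was left out (adjusted p = 0.0580, 0.0621, 0.0741 and 0.0602 from limma).

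Every one of the 30 parent tRNAs passed the same test and had no overlap (100% of the list for each), so passing sets none of the 3 genes apart. After rescaling to the nuclear tRFs none of the 3 passed: -1.35 for mt-Ti, -1.91 for mt-Tq and -0.63 for mt-Tm (limma adjusted p = 0.340, 0.209 and 0.492). Among the 19 mitochondrial tRNAs with listed fragments, mt-Ti ranked 4, mt-Tm 5 and mt-Tq 12 by mean level in *db/+* mice, an order of mt-Ti and mt-Tm that turned over *db/+* replicates 1 and 2 alone, and mt-Tq ranked 2, mt-Ti 7 and mt-Tm 16 by size of decrease. Of the 22 mitochondrial tRNA genes, 14 are on the plus strand, as mt-Ti and mt-Tm are, and 12 of them had listed fragments, with a median log2 fold change of -2.38. Of the 8 on the minus strand, mt-Tq among them, 7 had listed fragments, with a median of -2.36.

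Whether the 3 genes fell by different amounts was tested on their ratios within a library, which depend on the size factors only through the added 1. The log2 ratio of mt-Tq to mt-Tm was -3.07, -3.23 and -3.52 in *db/+* and -5.35, -4.50 and -3.61 in *db/db* replicates 1 to 3. All *db/db* values were lower, the nearest of them by little, and with 5 in place of 1 added to the sums the difference was -0.86 (exact permutation p = 0.2). With 1 added, the mean difference was -1.22 (SE 0.52, exact permutation p = 0.1, the smallest that 3 against 3 can give, adjusted p = 0.3 over 3 ratios). The log2 ratio of mt-Ti to mt-Tm was -0.25, 0.10 and 0.23 in *db/+* and -1.11, -0.12 and -0.83 in *db/db* libraries, which overlapped. It differed by -0.72 (SE 0.33, exact permutation p = 0.2, adjusted p = 0.3). The ratio of mt-Ti to mt-Tq differed by 0.50 (SE 0.58, exact permutation p = 0.5, adjusted p = 0.5), or by 0.16 with 5 added. The leading fragments of the genes were also compared in place of the sums. The ratio of mt-Tq to mt-Tm then differed by -1.73 and that of mt-Ti to mt-Tm by -1.08 (exact permutation p = 0.1 each, unadjusted). That of mt-Ti to mt-Tq differed by 0.64 (exact permutation p = 0.5, unadjusted). With 3 mice per group this test cannot go below 0.1, so it leaves unsettled whether the 3 genes differed in decrease.

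**Figure D5:**
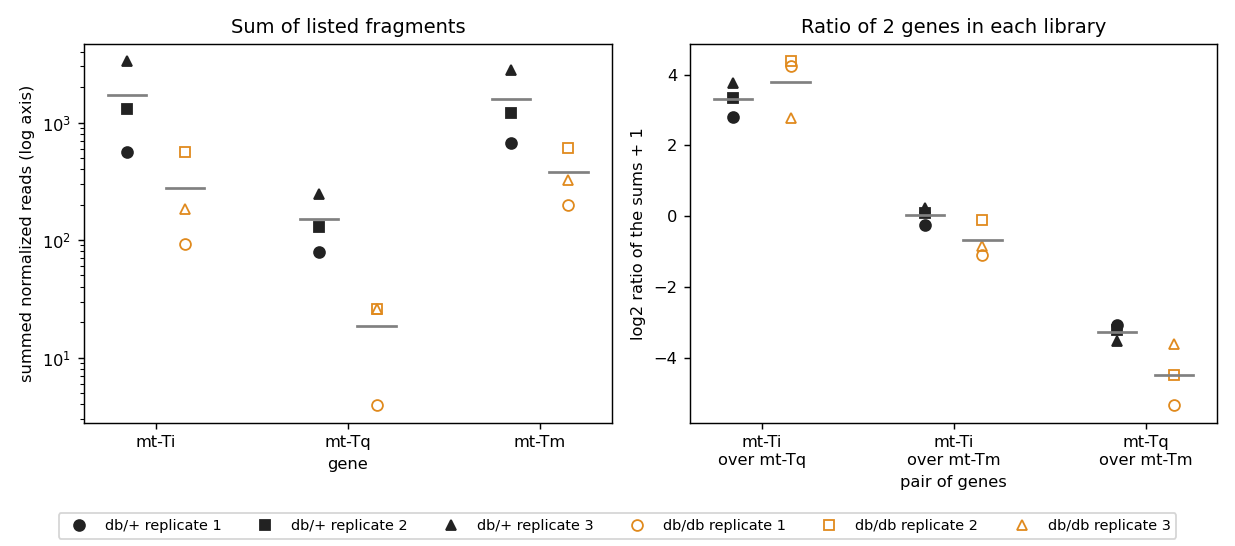
Left, summed normalized reads of the listed fragments of each gene (log axis); right, log2 ratio of the sums plus 1 of 2 genes in each library, with group means as grey lines (*db/+* black, *db/db* open orange). The sums do not overlap between genotypes in any of the 3 genes, while among the ratios only mt-Tq over mt-Tm does not overlap, with -3.52 as the lowest *db/+* and -3.61 as the highest *db/db* value.

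The cluster was also set against the rest of the mitochondrial list. The fragments of the 3 genes made up 11.5%, 16.6% and 18.3% of the listed mitochondrial level in *db/+* and 14.4%, 21.2% and 11.0% in *db/db* replicates 1 to 3, with group means of 15.5% each. The log2 ratio of the cluster to the other mt-tRFs differed by -0.02 between the genotypes (SE 0.40, exact permutation p = 1).

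The make-up of each gene's fragments was compared in the same way. The 5′ fragments carried 89.0%, 92.9% and 96.1% of the listed mt-Tm level in *db/+* and 91.2%, 96.1% and 93.4% in *db/db* replicates 1 to 3 (means 92.7% and 93.5%). The 42-nt fragment carried 38.2% of the mt-Ti level in *db/+* and 32.8% in *db/db* mice, the 42-nt fragment 63.6% and 49.5% of that of mt-Tq, and the 52-nt fragment 66.5% and 73.4% of that of mt-Tm. For mt-Tq the *db/db* mean includes the 0% of *db/db* replicate 1, where the gene had 2 reads. The 4 shares had exact permutation p of 0.4 to 0.8, each with an adjusted p of 0.8. Each difference between the group means was smaller than the SD among the *db/+* mice. With 3 mice per group the test cannot go below 0.1, so it leaves unsettled whether the shares differed.

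Over the 6 libraries, the parent tRNAs whose summed level (log2 of the sum plus 1) ran most like that of mt-Ti were mt-tRNA-Met, its neighbour in the cluster (Pearson's r = 0.995), mt-tRNA-Cys (0.989) and mt-tRNA-His (0.956). mt-Tm was most like mt-tRNA-Ile (0.995), mt-tRNA-Cys (0.995) and mt-tRNA-His (0.977). Neither neighbour was among the 3 parents most like mt-Tq, which were those of alanine (0.993), aspartate (0.991) and proline (0.990). The least like each of the 3 genes was the nuclear tRNA-Gly (GCC), with r between 0.490 and 0.639. All points share the 2 group means, the size factors and the high *db/+* replicate 3, so these values describe the order of likeness only.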

How the data were processed

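Islet RNA was treated by the authors with the rtStar pretreatment kit, which removes base methylations and makes fragment ends ligatable, and libraries were made with the QIAseq miRNA kit. tRFs were annotated with tRNAscan-SE, GtRNAdb and mitotRNAdb, and a tRF needed 2 reads to count as present in a library. The processing notes name FastQC. Not given in the sources used here are the aligner, trimming, build and use of molecular identifiers.

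The deposited table holds raw read counts per tRF and library. The deposited mean signal is the mean of the counts over DESeq2 size factors, from which the factors were solved (largest misfit 1.82e-12). The authors' log2 fold changes with standard errors, test score and raw and adjusted p-value per tRF come from DESeq2 and were not used. Sequencing depth is unknown here, since only chosen tRFs are listed.

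Counts of all 170 listed tRFs were fitted with edgeR 4.0.16 (quasi-likelihood, R 4.3.3), with library sizes proportional to the size factors, no filter and no covariate, and p-values were adjusted over the list (Benjamini-Hochberg). This adjustment does not correct for the authors' choice of the listed tRFs by their decrease. It changed the larger p-values little: that of the mt-Tm 52-nt fragment went from 0.0331 to 0.0346 in edgeR. The standard error is the fold change over the square root of F. Sums per parent tRNA were tested with limma 3.58.1 with trend on log2(sum + 1). Ratios and shares were compared by the two-sided exact permutation test. The fits were tested on simulated data with the same dispersion for every tRF and most tRFs unchanged. The listed tRFs were all chosen for their decrease, and the leading fragments varied widely among the controls. That test therefore does not show how the fits perform on this list. Fragments were matched to GENCODE M21 tRNA transcripts with CCA added, using Python 3.11.15, NumPy 2.4.6, pandas 2.3.3 and SciPy 1.17.1; plots used matplotlib 3.10.9. Nothing says more of the replicates than that each is a separate mouse, and the labels and the paper are not settled on the colony. Every fragment of the 3 genes is described, with full statistics for the most abundant of each gene and the smallest and largest decreases. The members, lists and tests were chosen with earlier results of these data known. Alternatives were DESeq2 1.42.0, limma on single fragments, a mean level of at least 10, stricter thresholds (adjusted p of at most 0.01, or 4-fold), pseudocounts of 0.5 and 5, limma without trend, the leading fragment in place of the sum, rescaling to the nuclear tRFs, the replicate number as a block, and leaving out each library.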

Additional observations from a re-analysis of the deposited data

How the results depend on the processing

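The direction of every member's change held under all alternatives run, and all 18 passed with DESeq2 and with limma on single fragments. All 18 also passed with the replicate number as a block, but the labels state no pairing by number, so this is not taken as support. With a mean level of at least 10, 17 of the 17 fragments left passed, 14 passed at a decrease of at least 4-fold, and 11 at an adjusted p of at most 0.01. Rescaling the levels so that the nuclear tRFs of the list had equal sums raised the median of all listed tRFs by 1.26 on the log2 scale. With it, 0 members passed by edgeR (4 at an unadjusted p of at most 0.05), and all 18 stayed below 0 (-3.09 to -0.49, median -1.07, beside -1.16 over the list). The sums then changed by -1.35 for mt-Ti (adjusted p = 0.340 from limma), -1.91 for mt-Tq (0.209) and -0.63 for mt-Tm (0.492). The nuclear tRFs of the list were themselves chosen for their decrease.

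Without 1 library, between 13 and 18 members passed. The sums ranged from -3.36 to -2.01 for mt-Ti, from -3.57 to -2.35 for mt-Tq and from -2.44 to -1.40 for mt-Tm. The ratio of mt-Ti to mt-Tq differed by 0.21 to 1.01, that of mt-Ti to mt-Tm by -1.001 to -0.50, that of mt-Tq to mt-Tm by -1.65 to -0.78, and that of the cluster to the other mt-tRFs by -0.316 to 0.246, with a sign that changed without *db/+* replicate 2 (0.0567) or 3 (0.144) or *db/db* replicate 1 (0.0211) or 3 (0.246). The difference in share (percentage points) was -0.964 to 2.58 for the mt-Tm 5′ fragments, below 0 without *db/+* replicate 1 (-0.964) or *db/db* replicate 2 (-0.389). It was -9.38 to -1.55 for the mt-Ti 42-nt, -29.7 to 10.6 for the mt-Tq 42-nt and -0.0652 to 14.4 for the mt-Tm 52-nt fragment. The causes were not tested.

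The labels state no pairing of the mice by replicate number. The deviations of mice with the same number from their group means had correlations of 0.21, -0.26 and -0.22. With 3 mice per group these values cannot settle whether the numbers pair the mice. With the number as a block, the sums had adjusted p of 7.63e-05 (mt-Ti), 2.32e-07 (mt-Tq) and 0.00156 (mt-Tm) from limma. Without the block, the adjusted p from limma was 0.0200, 0.00811 and 0.0233 in the same order. The block has no basis in the design, so its smaller values are not taken as stronger evidence of a decrease. Depth limits mt-Tq most, with 2 to 31 reads per *db/db* library.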
